A study of Mus musculus with 12 samples.

Results

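The genes described here are the CCN family of secreted matrix proteins (Ccn1 to Ccn6), the YAP target genes Ankrd1 and Amotl2, and the coactivators Yap1 and Wwtr1 (which encodes TAZ). They were taken as every probe whose accession maps to one of the 10 symbols, older names included (Cyr61, Ctgf, Nov, Wisp1, Wisp2 and Wisp3 for the CCN genes). All 10 genes were on the array, with 11 probes of 39429, among 32496 genes in all, and 9 of them were among the 25027 genes kept for analysis, since Ccn6 was not well above background. The set was selected on gene family and pathway together with the measured log2 levels in the 4 groups, so those levels and their differences are given as a description with standard errors (SE) and without a test. The study profiled 2 cell fractions of the testis, germ cells and a fraction labelled Sertoli cells, from 6 male C57BL/6J mice on 12 single-colour Agilent arrays. Mice 120 (4 months), 86 and 72 (both 8 months) are labelled TAp73 knockouts, that is, without the isoforms of the p53 relative p73 that carry the transactivation domain. Mice 99 (5 months), 73 and 74 (both 8 months) have the source name wildtype. The sample titles call only mouse 99 WT and call mice 73 and 74 het, so the control group holds 2 genotypes by title. The labels name no treatment for any group, and each group has 3 mice, each of which gave both fractions.

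CCN proteins are modular, secreted proteins of the extracellular matrix that bind integrins, LRP1 and heparan sulfate proteoglycans and modulate growth factors such as TGF-beta. Ccn1 and Ccn2 are textbook immediate targets of YAP and TAZ, which enter the nucleus when the Hippo kinases are inactive and work through the TEAD DNA-binding proteins. Ankrd1 and Amotl2 are targets of the same route, and AMOTL2 in turn retains YAP in the cytoplasm. CCN genes are typical of fibroblasts and other mesenchymal cells, and in the testis contractile genes mark the peritubular myoid cells around the tubules.

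The bases before the start of 3 of the target genes are shown because the TEAD motif CATTCC (or its reverse complement GGAATG, in capitals) lies in each. The windows run 5′ to 3′ on the gene's strand and come from RefSeq on GRCm38.p6: chr3:145649986-145650235 (minus strand) for Ccn1, chr19:36119845-36120094 (minus strand) for Ankrd1 and chr9:102717554-102717803 (plus strand) for Amotl2.
Ccn1: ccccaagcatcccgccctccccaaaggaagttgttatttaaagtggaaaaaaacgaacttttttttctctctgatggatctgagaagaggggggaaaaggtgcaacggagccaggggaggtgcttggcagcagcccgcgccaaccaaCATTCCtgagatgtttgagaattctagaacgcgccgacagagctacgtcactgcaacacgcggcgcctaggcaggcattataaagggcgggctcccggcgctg
Ankrd1: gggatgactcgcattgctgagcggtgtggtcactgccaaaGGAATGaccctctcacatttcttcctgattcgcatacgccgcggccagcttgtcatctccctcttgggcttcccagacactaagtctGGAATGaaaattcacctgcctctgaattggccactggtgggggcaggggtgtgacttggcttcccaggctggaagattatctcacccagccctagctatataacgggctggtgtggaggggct
Amotl2: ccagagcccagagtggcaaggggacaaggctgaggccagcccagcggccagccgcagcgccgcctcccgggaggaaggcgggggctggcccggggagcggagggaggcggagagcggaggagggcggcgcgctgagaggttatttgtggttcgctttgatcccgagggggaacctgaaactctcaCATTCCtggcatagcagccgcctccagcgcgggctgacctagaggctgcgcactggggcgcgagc
RefSeq windows were at hand for 6 of the 10 genes. They have 7 windows, of which 6 held the motif, against 4148 of all 32817 windows of 250 bases (12.6%). Counting from 1 at the base next to the start, the near end of the match lay 98 bases upstream in Ccn1, 60 in Amotl2, and 118 and 205 in Ankrd1, where there were 2. The Yap1 window had a match at 136 bases, and the pair of overlapping Wwtr1 windows held the same match at 131 and 165 bases from their respective starts. The Ccn6 window had none. Neither TGANTCA (AP-1; in 6.75% of all windows) nor the CArG box (SRF; in 1.47%) was found on either strand in any of the windows of these 6 genes; either motif can share end letters with CATTCC. In the list of other YAP and TAZ target genes given further on, 5 of 18 windows held CATTCC. These are matches of letters, not sites shown to be bound.

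Some properties of the arrays bear on every result. The 75th percentile of the processed signal ran from 1355 (the control Sertoli-fraction array of mouse 74) to 5350. Between 73.3% and 78.9% of probes were well above background on germ-cell arrays, and between 64.1% and 68.3% on Sertoli-fraction arrays. Levels are log2 signals relative to the 75th percentile of the same array, so 0 is that percentile, and only levels of one probe are set side by side. Slides paired 1 knockout with 1 control mouse, with both fractions of each, on 3 slides in all. The 3 Trp73 probes gave signal well above background in 30 of 36 readings, with all 18 knockout readings among them. One probe was near background in both fractions of mouse 99 (-9.40 and -9.42) and measured in mice 73 and 74 (-4.15 to -2.50) and in the knockouts (-3.29 to -1.52). The labels do not say which part of Trp73 is deleted, so these probes do not check the knockout label. In control mice the fraction labelled Sertoli cells was not enriched for its label's markers as a list: 7 of 11 Sertoli genes passed as lower there than in germ cells, among them Rhox5 (difference -5.28, log2) and Amhr2 (-4.40), and 3 passed as higher, Gata4 (3.1), Sox9 (1.43) and Wt1 (0.63). Of the 11, 10 were well above background in it. Fshr, the FSH receptor, was not well above background in it, at least 8.99-fold below the control germ cells. Fibroblast and peritubular myoid markers were all higher in it (6 of 6 in each list). It is called the Sertoli fraction below only as its label.

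All 9 measured genes were higher in the Sertoli fraction than in germ cells, in both genotypes and without overlap of the arrays, as were 39% of all genes in control mice and 41.4% in knockout mice. Of these, 7 were well above background on all 12 arrays; Ccn3 and Ankrd1 were kept through the Sertoli fraction, where they are high. The median difference between fractions of the 7 was 6.43 in control mice and 5.32 in knockout mice, against 0.21 and 0.09 over all genes. Over the 17930 genes well above background on all arrays it was 0.64 and 0.505. In germ cells the 7 had a higher mean in the knockouts, with a median difference of 0.85 against -0.04 over all genes and 0 over those 17930. In the other fraction 6 of the 7 had a lower mean in the knockouts, with a median of -0.12 against -0.10 over all genes and -0.07 over the 17930. These counts describe genes chosen with these values known, and nothing is read from them. In these bulk samples fewer cells of a type and less RNA per cell cannot be told apart.

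Ccn1 (Cyr61), an integrin-binding matrix protein of wounding and angiogenesis, stood at -1.96, -2.08 and -2.06 in the germ cells of control mice 99, 73 and 74. The knockout germ cells of mice 120, 86 and 72 had -0.55, -0.71 and -0.32. Every knockout array lay above every control array, by 1.51 (SE 0.16) in the mean, a 2.84-fold difference, and by 1.37 to 1.74 within the 3 slides. In the Sertoli fraction the controls (4.81, 4.87 and 4.70) and the knockouts (4.71, 4.72 and 4.79) overlapped, with a difference of -0.06 (SE 0.16). The Sertoli fraction exceeded germ cells 113-fold in control mice and 38.4-fold in knockout mice.

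Ccn2 (Ctgf), the connective tissue growth factor of fibrosis, had 1.33, 0.83 and 0.83 in control germ cells and 1.43, 1.70 and 1.51 in knockout germ cells. The groups did not overlap, but mouse 99 came within 0.11 of the knockout of its slide, and the difference was 0.56 (SE 0.20). The Sertoli fraction gave 6.25, 6.74 and 6.50 in controls and 6.11, 6.04 and 6.30 in knockouts, which overlapped only in that mouse 72 lay just above mouse 99, with a difference of -0.35 (SE 0.20). On each slide the knockout was the higher in germ cells and the lower in the Sertoli fraction, where the slide differences ran from -0.70 to -0.14. The Sertoli fraction exceeded germ cells 45.2-fold in control mice and 24.2-fold in knockout mice.

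Ccn3 (Nov), a CCN protein that often opposes Ccn2, was not well above background on any germ-cell array of either genotype. Its level in the Sertoli fraction was -3.08, -4.01 and -4.05 in controls and -2.83, -3.49 and -3.80 in knockouts. These groups overlapped, with a difference of 0.34 (SE 0.34). Against the lowest signal counted as well above background, the Sertoli fraction was at least 9.98-fold above germ cells in control mice and at least 14.4-fold in knockout mice. Ccn3 gave no germ-cell level to compare between genotypes.

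Ccn4 (Wisp1), a WNT-inducible CCN gene, was read by 2 probes. The probe with the higher signal gave -5.11, -5.49 and -5.06 in control germ cells and -4.22, -4.81 and -4.09 in knockout germ cells. The groups did not overlap, and the difference was 0.85 (SE 0.22). The same probe read the Sertoli fraction at 3.83, 3.71 and 3.50 in controls and 3.72, 3.44 and 3.51 in knockouts, which overlapped (difference -0.12, SE 0.22). The other probe showed a germ-cell difference of 0.84 (SE 0.20), again without overlap. It had the opposite sign in the Sertoli fraction (0.17, SE 0.20), where both probes' differences were within their SE. The Sertoli fraction exceeded germ cells 477-fold in control mice and 243-fold in knockout mice by the first probe.

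Ccn5 (Wisp2), the member without the carboxy-terminal cystine-knot module, showed the widest germ-cell difference of the CCN genes. Control germ cells had -5.21, -5.82 and -4.97 and knockout germ cells -3.91, -3.39 and -2.89. The groups were more than 1 log2 unit apart at their nearest arrays, and the difference was 1.94 (SE 0.32), or 3.83-fold, with 1.30 to 2.43 within slides. The Sertoli fraction had 4.71, 4.82 and 5.40 in controls and 4.71, 4.63 and 5.16 in knockouts. There the groups overlapped, the slide differences ran from -0.25 to -0.003, and the mean difference was -0.15 (SE 0.32). The gap between fractions was 10.31 in control mice and 8.23 in knockout mice, which is 1270-fold in control mice. Ccn6 (Wisp3) was not well above background on any of the 12 arrays, and no level is given for it.

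Ankrd1, a cardiac and stress-induced ankyrin repeat protein, stayed at background in the control germ cells of all 3 mice. Of the 3 knockout germ-cell arrays, mice 86 (-6.70) and 72 (-6.51) were above background and mouse 120 (-7.06) was not. Sertoli-fraction controls had 2.56, 3.18 and 1.51 and the knockouts 1.45, 1.71 and 1.06. The knockout was the lower on every slide, by 0.45 to 1.47, but mouse 86 lay above control mouse 74, and the difference was -1.01 (SE 0.45). The Sertoli fraction was at least 699-fold above germ cells in control mice. In knockout mice the means were 286-fold apart, with 1 of the 3 germ-cell arrays in them not above background.

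Amotl2, an angiomotin that binds YAP at junctions, had -4.56, -3.36 and -3.13 in control germ cells and -2.81, -3.41 and -2.52 in knockout germ cells. The groups overlapped, with the lowest value in mouse 99, and the difference was 0.77 (SE 0.36). Sertoli-fraction controls (2.60, 2.27 and 2.64) and knockouts (2.48, 2.59 and 2.13) were mixed (difference -0.10, SE 0.36). The fractions were 72.7-fold apart in control mice and 39.8-fold in knockout mice.

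The coactivators showed no separation of the genotypes in germ cells. Yap1 stood at 0.84, 0.28 and 0.02 in control germ cells and 0.39, 0.79 and 0.67 in knockout germ cells, which overlapped (difference 0.24, SE 0.22). Its Sertoli-fraction levels were 3.25, 3.52 and 3.34 in controls and 3.27, 3.29 and 3.22 in knockouts (difference -0.12, SE 0.22). Its gap between fractions was the smallest of the 9 genes, 7.97-fold in control mice and 6.23-fold in knockout mice. Wwtr1 had -6.10, -3.88 and -4.39 in control germ cells and -3.78, -4.79 and -3.20 in knockout germ cells, a spread too wide to separate the groups (difference 0.87, SE 0.53). Wwtr1 was the only gene of the set with all knockouts above all controls in the Sertoli fraction (1.88, 1.42 and 1.62 against 2.19, 2.15 and 2.56). That difference was 0.66 (SE 0.53), with 0.31 to 0.94 within slides. The SE is taken over all 4 groups. The SD of Wwtr1 was 1.16 in control and 0.80 in knockout germ cells, and 0.23 in either genotype of the Sertoli fraction. The gap between fractions was 86.3-fold in control mice and 74.9-fold in knockout mice.

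**Figure D1:**
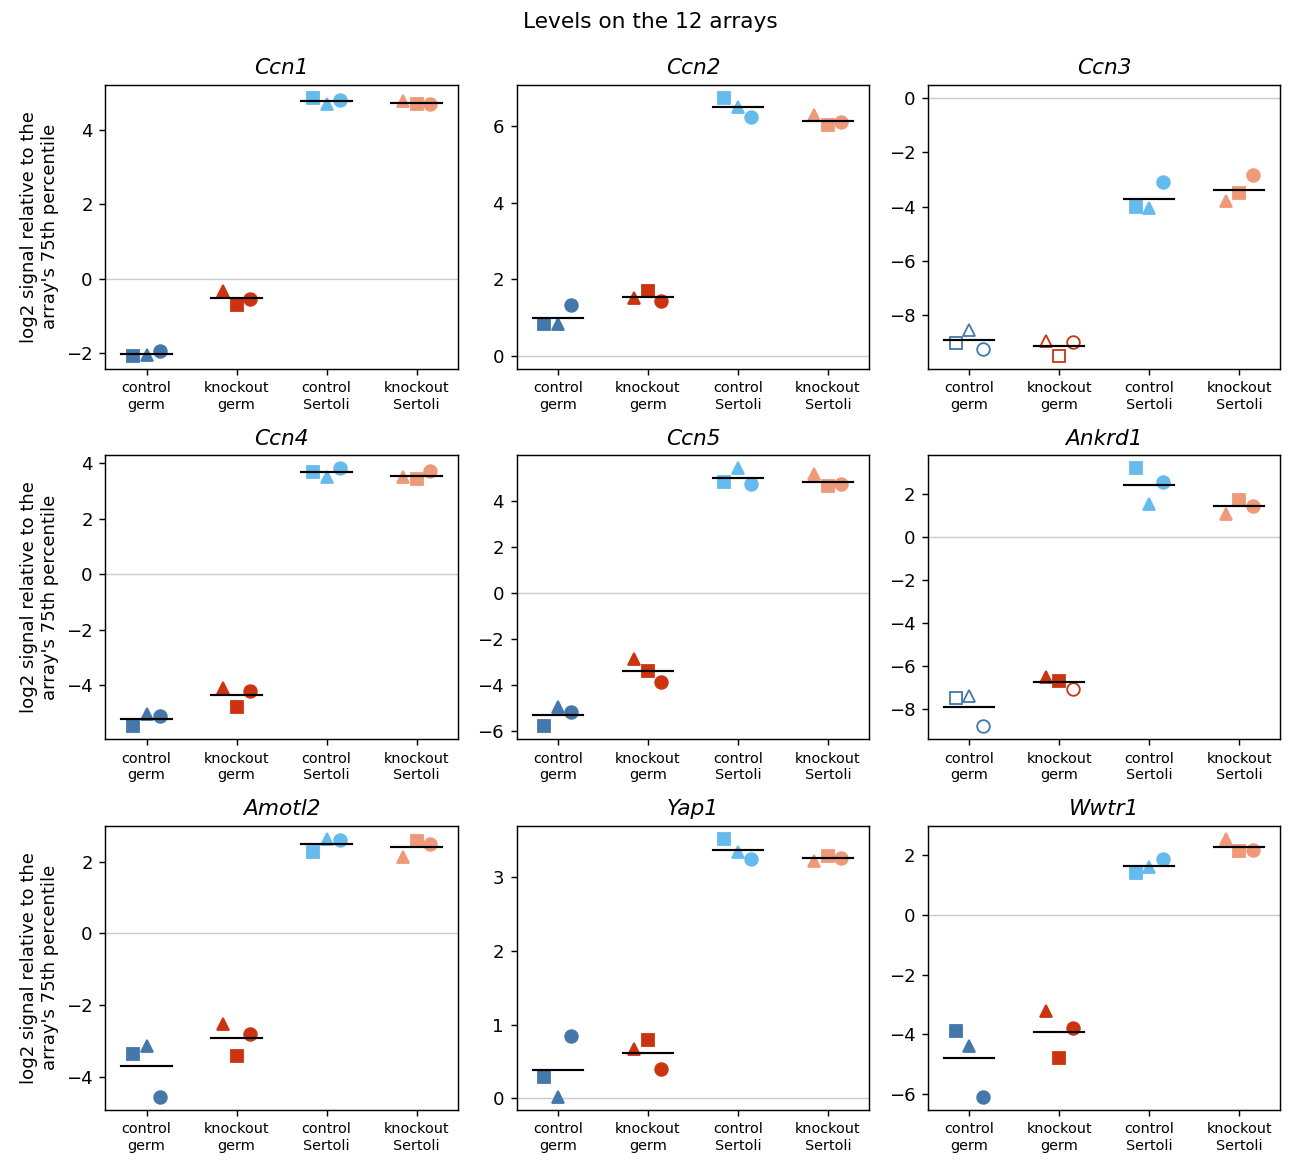
Level of each gene on each array (y axis, log2 signal relative to the array's 75th percentile; each panel has its own range) in the 4 groups (x axis). Points are arrays, shaped by slide (circle slide 1, square slide 2, triangle slide 3), open where the signal was not well above background, and lines are group means; Ccn1 germ-cell levels lie between -2.08 and -1.96 in controls and between -0.71 and -0.32 in knockouts.

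The genotype comparison asks what loss of TAp73 changes in each fraction. In germ cells the knockout arrays lay wholly above the control arrays for 4 of the 7 measured genes (Ccn1, Ccn2, Ccn4 and Ccn5), against 6.56% of all genes, dim ones included. The sign was the same under every alternative processing and on every slide for those 4 genes, while Amotl2, Yap1 and Wwtr1 had the opposite sign under at least 1. The germ-cell differences of Ccn1 and Ccn5 from the mice of 8 months and from the mouse titled WT stayed within the range of 1.30 to 2.43.

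In the Sertoli fraction no gene of the 25027 passed an adjusted p of 0.05 (0%; limma, Benjamini-Hochberg over all genes), where 756 genes had an unadjusted limma p under 0.05. Among the genes described here, Wwtr1 alone had all knockouts above all controls, against 1.86% of all genes. Signs held under all alternatives for Ccn2 and Ankrd1 (lower) and Wwtr1 (higher), and turned under at least 1 for the other 6. The contrast of the 2 genotype effects (Sertoli fraction minus germ cells) was negative for the 7 genes measured on all arrays, with a median of -0.90 against -0.09 over all genes. Its size among them was largest for Ccn5 (-2.09, SE 0.45) and Ccn1 (-1.56, SE 0.22).

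**Figure D2:**
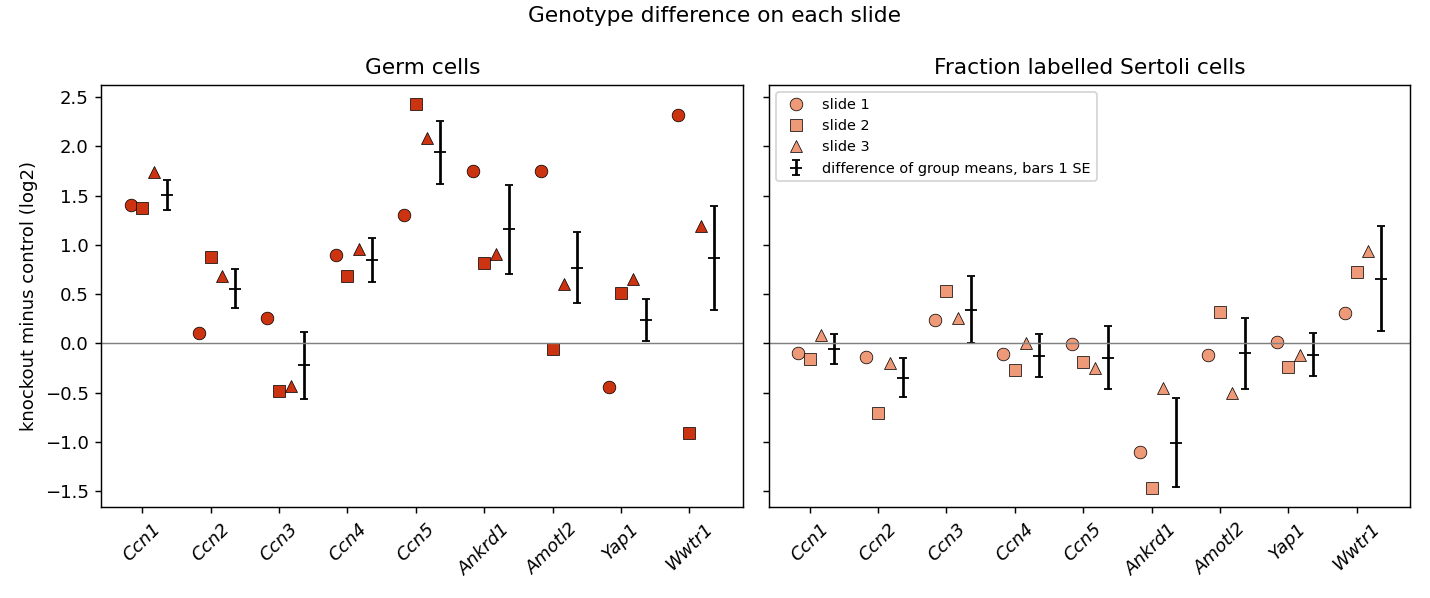
Knockout minus control difference (y axis, log2) of each gene (x axis) on slides 1, 2 and 3 in germ cells (left) and in the Sertoli fraction (right), with the difference of the group means and 1 SE as bars. Ccn1 and Ccn5 are above 1.30 on each slide in germ cells and between -0.25 and 0.09 in the Sertoli fraction. Germ-cell signals of Ankrd1 in controls and in knockout mouse 120 (slide 1), and all those of Ccn3, are near background.

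Set against the other fraction of the same mouse, the germ-cell level of Ccn1 was 0.92%, 0.81% and 0.92% of the Sertoli-fraction level in control mice 99, 73 and 74. In knockout mice 120, 86 and 72 it was 2.61%, 2.32% and 2.90%. These ranges did not overlap, and the same was so for Ccn5, with 0.10%, 0.06% and 0.08% in controls and 0.26%, 0.39% and 0.38% in knockouts. How many of all genes separate on this measure was not computed, and these genes were chosen with their values known, so nothing is read from the separation. Ccn2 rested at 1.66% to 3.31% in controls and 3.63% to 4.96% in knockouts, and Ccn4 at 0.17% to 0.27% and 0.33% to 0.52%. Yap1 had 9.98% to 18.7% in control mice and 13.7% to 17.7% in knockout mice, and these overlapped.

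**Figure D3:**
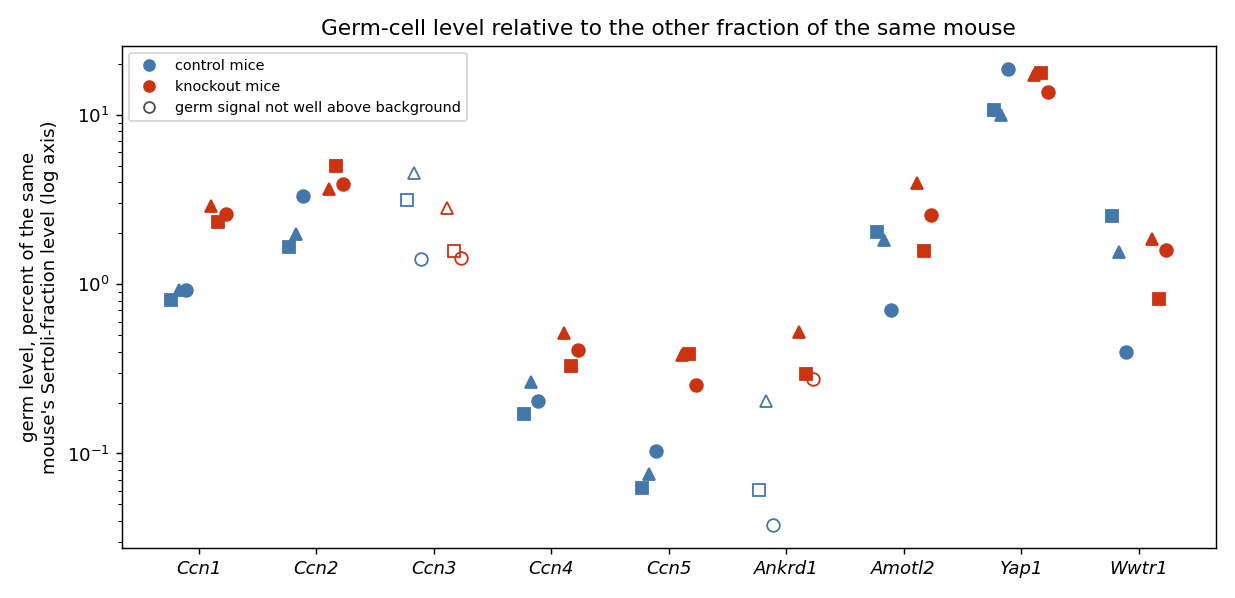
Germ-cell level of each gene (x axis) as a percent of the Sertoli-fraction level of the same mouse (y axis, log scale), with control mice in blue and knockout mice in red, shaped by slide as in the plot of levels, and open where the germ-cell signal was not well above background. Ccn1 lies below 1% in the 3 control mice and above 2.3% in the 3 knockout mice, while the Yap1 ranges overlap.

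Mouse 99, the youngest control and the one titled WT, stood apart from the other controls for several genes. Its germ-cell array had the highest Ccn2 and Yap1 and the lowest Amotl2 and Wwtr1 of the 3 controls. Against this mouse alone, the knockout germ cells differed by 1.64 in Amotl2, 2.17 in Wwtr1, 0.22 in Ccn2 and -0.22 in Yap1. Ccn1 (1.43), Ccn4 (0.74) and Ccn5 (1.82) stayed nearer to the values from all controls. As a description over the 12 arrays, whose deviations from their group means share arrays and scaling, Amotl2 went with Wwtr1 (Pearson r 0.86) and Ccn2 with Yap1 (0.81). Amotl2 ran against Ccn2 (-0.85) and Yap1 (-0.82). Age, title genotype and slide change together with mouse 99 and cannot be told apart.

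The rest of the pathway was read from 7 lists, tested with limma over all 25027 genes. In germ cells 55 of these passed between genotypes (0.22%), 54 of them higher, and between the fractions of control mice 39.8% passed as higher in the Sertoli fraction and 36.5% as lower. Among other YAP and TAZ target genes, 21 of 22 could be tested, 15 had a higher mean in knockout germ cells (median 0.54 against -0.04 over all genes), and 2 rose. Igfbp3, a secreted binder of insulin-like growth factors, had -5.87, -5.24 and -4.76 in control germ cells and -2.76, -2.20 and -1.70 in those of the knockouts. The groups were far apart, with a rise of 3.07 (SE 0.32, limma adjusted p = 0.00637). In the Sertoli fraction its 3 knockouts (2.88, 2.49 and 2.67) also lay above the controls (2.14, 1.66 and 1.84), but the difference of 0.80 missed the threshold (SE 0.32, limma adjusted p = 1). Edn1, the precursor of the vasoconstrictor endothelin, had -3.63, -2.87 and -3.56 in control and -1.88, -1.50 and -1.42 in knockout germ cells, a rise of 1.75 (SE 0.28, limma adjusted p = 0.0431). Igfbp3 was no longer past the threshold without mouse 72 (limma adjusted p = 0.09), 73 (0.12), 86 (0.104) or 99 (0.0609), with normexp (0.0918), with only the arrays compared (0.221), with only the mice of 8 months (0.0541) or without the het mice (0.137). Edn1 was lost without any one of the mice (0.0583 to 0.411), with the slide as a block (0.0759), with no filter on dim probes (0.0804), with normexp (0.345), with only the arrays compared (0.332), with only the mice of 8 months (0.152) and without the het mice (0.156). Between the fractions of control mice all 21 passed, 19 as higher in the Sertoli fraction and 2 as lower, with Ccdc80 (10.17), Tgfb2 (7.73), Igfbp3 (7.17) and Fjx1 (5.86) furthest apart.

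None of the listed kinases and scaffolds of the Hippo route changed with genotype in either fraction (0 of 15 tested in each). The 3 smallest p in germ cells belonged to Nuak2 (0.58, SE 0.26), Map4k4 (0.41, SE 0.18) and Sav1 (-0.30, SE 0.18), none of which passed. In control mice 9 of them had more signal in the Sertoli fraction and 3 had less (past the threshold), against 39.8% and 36.5% of all genes. Map4k4, an upstream kinase, was higher by 3.40 (SE 0.18, limma adjusted p = 1.67e-08), and the core kinase gene Stk3 (MST2) by 2.63 (SE 0.33, adjusted p = 2.01e-05). The YAP kinase Lats1 was lower there by 2.96 (SE 0.47, adjusted p = 0.000137), while its paralog Lats2, itself a YAP target, was higher by 2.44 (SE 0.17, adjusted p = 1.71e-07). Proteins that bind YAP or act upstream of it were mixed, and of 15 tested 0 changed with genotype. In control mice 8 passed as higher in the Sertoli fraction and 5 as lower, near the 39.8% and 36.5% of all genes. Amotl1, a relative of Amotl2, was lower in the Sertoli fraction by 4.30 (SE 0.19) and the polarity gene Scrib by 2.42 (SE 0.19), whereas Dlg5 was higher by 3.61 (SE 0.17).

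Of the TEAD factors and their VGLL cofactors, 7 of 8 could be tested and 0 changed with genotype. In control mice 6 passed as higher in the Sertoli fraction, against 39.8% of all genes, the DNA-binding Tead1 by 6.70 (SE 0.36) and Tead3 by 5.46 (SE 0.18). Tead4 and Vgll3 were not well above background in germ cells, so that they were at least 7.28-fold and 23.8-fold higher. Vgll2 went the other way and was not well above background in the Sertoli fraction. Among 12 receptors and co-receptors of CCN proteins, 10 had a higher mean in knockout germ cells (median 0.61), and none passed. Nearest were Itgb3 (1.11, SE 0.31, limma adjusted p = 0.264), Lrp1 (0.97, SE 0.32, adjusted p = 0.378) and Sdc4 (0.87, SE 0.29, adjusted p = 0.382). Between the fractions of control mice, 9 of the 12 passed as higher in the Sertoli fraction, against 39.8% of all genes. The fibronectin receptor chain Itga5 was at 7.65 (SE 0.45), Itgb1 at 5.88 (SE 0.19) and Lrp1 at 5.72 (SE 0.32). Itgav was higher by 6.61, with a wide error (SE 1.18), and 2 of 3 germ-cell arrays of each genotype measured it.

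SRF and its MRTF cofactors drive contractile genes and share targets with YAP. None of the 14 passed in either genotype comparison, but their signs differed between fractions. In germ cells 11 of 14 had a higher mean in the knockouts (median 0.40), against 11383 of all 25027 genes (median -0.04). In the Sertoli fraction 12 of 14 had a lower one (median -0.36), where 8707 of the 25027 genes had a higher one (median -0.10). The Sertoli-fraction signs depended on the scaling: after quantile normalization 8 of 14 were lower, with a median of -0.05. The contrast of the 2 effects was negative for 14 of 14, with a median of -0.90 against -0.09 over all genes (13 of 14 and -0.66 after quantile normalization), and none passed, as 2 of all genes did (0.00799%). That contrast was positive for 9879 of the 25027 genes. Fhl2 (1.09, SE 0.28), Zyx (0.75, SE 0.21) and Tpm1 (1.13, SE 0.34) had the smallest p in germ cells, and Actg2 (-0.75, SE 0.19), Cnn1 (-0.55, SE 0.19) and Mrtfa (-0.36, SE 0.16) in the Sertoli fraction. In the TGF-beta axis 11 of 12 had a higher mean in knockout germ cells (median 0.44), none past the threshold, with Smad3 (0.69, SE 0.19), Smad7 (0.56, SE 0.21) and Tgfb1 (0.96, SE 0.37) nearest. The receptor gene Tgfbr2 was higher in the Sertoli fraction of control mice by 6.21 (SE 0.24, limma adjusted p = 1.45e-09).

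**Figure D4:**
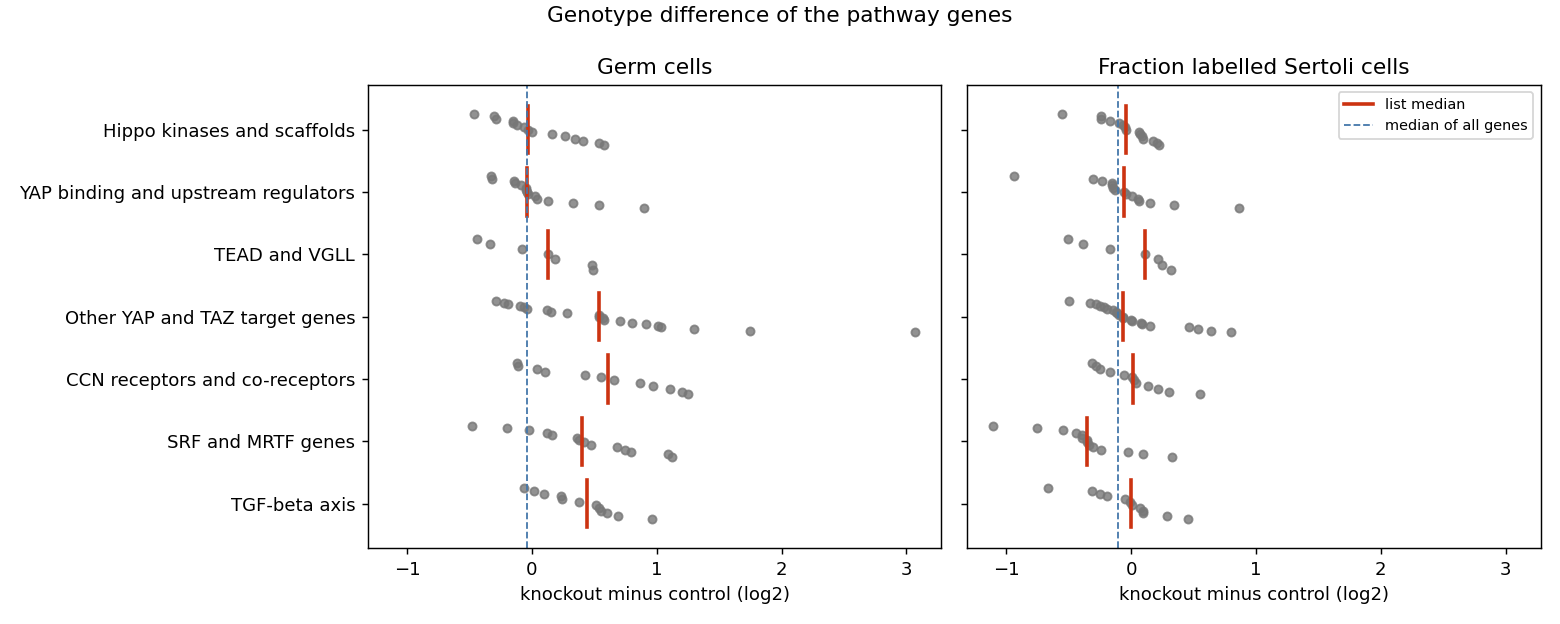
Knockout minus control difference (x axis, log2) of every tested gene of 7 lists (y axis, 1 point per gene) in germ cells (left) and in the Sertoli fraction (right), with the list median as a red bar and the median of all genes as a dashed line. In germ cells the median of the other YAP and TAZ target genes is 0.54 and that of the Hippo kinases and scaffolds is -0.03; in the Sertoli fraction the SRF and MRTF median is -0.36 (-0.05 after quantile normalization).

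Markers of other cell types were compared in the same way, and several lists were mostly higher in knockout germ cells. Of 6 fibroblast markers 5 had a higher mean in knockout germ cells, with a median of 0.87, and 1 rose: the receptor gene Pdgfra, by 1.25 (SE 0.19, limma adjusted p = 0.0354), a call kept without mouse 120 and lost without any other mouse (0.0802 to 0.402). It was also lost with quantile normalization (limma adjusted p = 0.0628), the authors' deposited table (0.0724), no filter on dim probes (0.0736), normexp (0.566), only the arrays compared (0.392), only the mice of 8 months (0.165) and without the het mice (0.194). Their summed level, on a scale where the 75th percentile is 1, was 1.69 to 2.72 in control and 2.98 to 4.37 in knockout germ cells, against 277 to 622 and 254 to 394 in the Sertoli fraction. The Leydig sum (5 markers, 5 of 5 higher) was 2.42 to 6.19 in control and 6.90 to 12.7 in knockout germ cells, and 5.94 to 8.88 and 6.16 to 7.81 in the Sertoli fraction. Macrophage and leukocyte markers (6 of 7 higher) summed to 0.54 to 0.71 in control and 0.75 to 1.67 in knockout germ cells, and to 1.99 to 3.92 and 1.81 to 3.11 in the Sertoli fraction. Sertoli markers (11 of 11 higher) summed to 91.8 to 111 and 123 to 141 in germ cells, and to 37.1 to 55.1 and 49.1 to 59.7 in the Sertoli fraction. On 1 knockout germ-cell array Amhr2 had no value, so the sum of that array leaves it out and is too low. The mean log2 level of Amhr2 on the other arrays of that group was 5.245. None of these lists other than that of the fibroblasts had a member past the threshold in germ cells. The Leydig gene Cyp11a1 missed it narrowly (2.015, SE 0.34, limma adjusted p = 0.0506). Peritubular myoid markers (5 of 6 higher, median 0.64) had sums that overlapped in germ cells, 20.8 to 24.5 and 21.3 to 22.3. The lower one was Actg2 (-0.48), without overlap. Actg2 had the most signal of the 6 in germ cells (mean 3.963 in control and 3.485 in knockout, log2), so it weighs most in these sums. Acta2, Tagln and Cnn1 were higher in knockout germ cells without overlap. In the fibroblast list 1 marker was also lower without overlap. In the Sertoli fraction the peritubular sums were 410 to 605 in controls and 288 to 428 in knockouts. Endothelium sums (6 of 6 higher) overlapped in germ cells, 2.78 to 3.64 in controls and 3.08 to 3.67 in knockouts. Of the 6 peritubular markers, 4 (Acta2, Tagln, Cnn1 and Actg2) are also in the SRF and MRTF list. Spermatid sums overlapped in germ cells (402 to 517 and 388 to 479), and in the Sertoli fraction were 0.95 to 3.42 in controls and 0.64 to 0.76 in knockouts, without overlap. The part of these markers in the differences of the CCN genes and YAP targets was not tested.

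**Figure D5:**
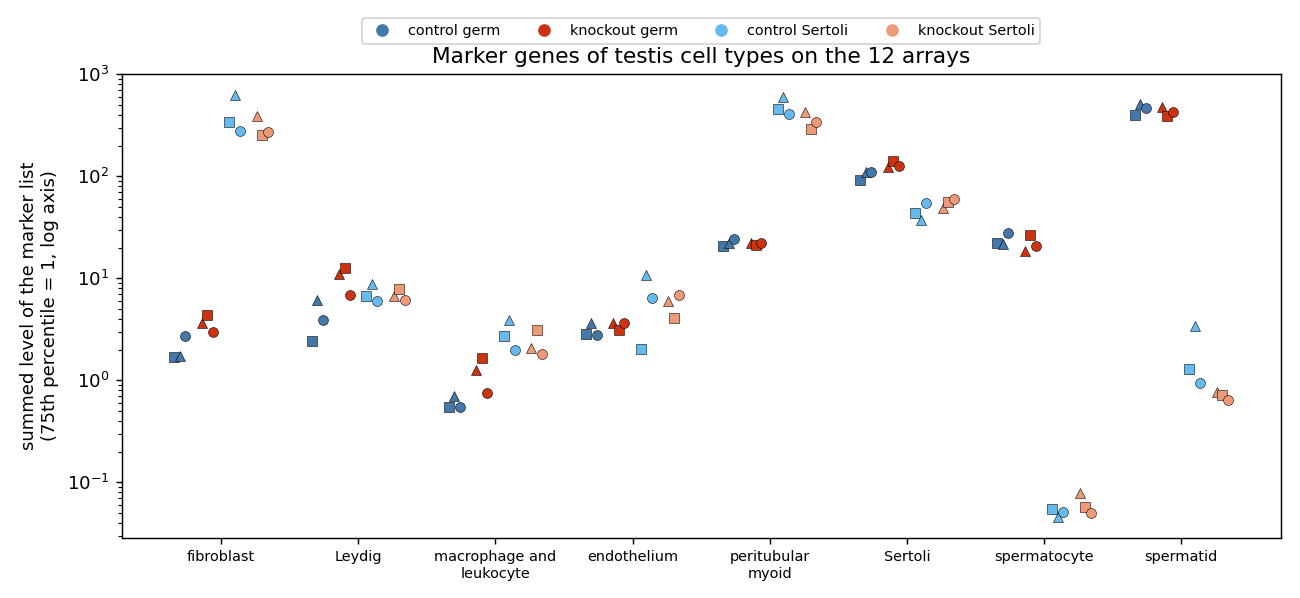
Summed level of 8 marker lists (x axis) on each array (y axis, linear signal relative to the 75th percentile, drawn on a log axis), coloured by group and shaped by slide. Fibroblast sums are 1.69 to 2.72 in control germ cells, 2.98 to 4.37 in knockout germ cells and above 250 in the Sertoli fraction, and Sertoli markers are lower in the fraction labelled Sertoli than in germ cells.

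The genes most like each member over the 12 arrays all followed the gap between the fractions, with Pearson r of 0.99 or more for each of the 27 gene pairs ranked. For Ccn1 they were B4galt1, Mdfic and Pdpn, for Ccn2 Slc25a4, Cnih1 and Ptgis, for Ccn4 Reep3, Timp3 and Spry1, and for Ccn5 Lsp1, Oaf and Zfp358. Ankrd1 ran with Ywhah, Ugdh and Cst6, Amotl2 with Sh3bp1, Rbms2 and Pygm, Yap1 with Stx3, Pigq and Lasp1, Wwtr1 with H1f2, Sec24d and Serinc5, and Ccn3 with Snx9, Gga2 and Nacad. By deviations from the group means, which leave that gap out, Ccn1 was nearest to Mcl1 (r 0.88), Ccn2 to Zfp511 (0.99) and Ccn5 to Bmp1 (0.96), a procollagen protease. These are the highest of 15743 named genes searched over only 12 arrays in 4 groups, and are given as a description.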

How the data were processed

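RNA of 12 samples, from 2 testis cell fractions of 6 mice, was labelled with Cy3 and hybridised to single-colour Agilent arrays, 4 arrays on each of 3 slides. The processed intensity per spot was deposited by the authors as Feature Extraction output (version 10.7.3.1, per the file headers). A table of log2 values was also deposited by the authors. Its normalization is not given in the sources used here, and it ranks probes as the processed signal does (lowest Spearman rho 1, column median 8.29). It served as an alternative. The submitters' processing notes name limma.

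Control spots (1377 of 44397) and outlier spots were dropped, so a fit leaves out such an array for that probe. Signals were put on the log2 scale relative to each array's 75th percentile. Spots of a probe were averaged, and a probe was kept where some group had it well above background on each of its 3 arrays. A gene was read from its brightest kept probe. Accessions were named through RefSeq (26055 of 39429 probes). Group means over 12 arrays were compared with limma 3.58.1 in R 4.3.3 (8 residual df, Benjamini-Hochberg over 25027 genes, threshold 0.05), in 5 comparisons. The comparisons share arrays: both that hold control germ cells, for example, rest on the same 3. The script was tested on simulated data. The number of arrays limits the precision. Within a fraction the arrays come from separate mice, so p-values between genotypes rest on a spread between mice, pooled over both fractions. The main fit took the 12 arrays of 6 mice as independent. Its p-values between fractions thus leave out that each mouse gave both, which only the alternative with the mouse as a block takes in.

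Members and lists were chosen with earlier results of these data known. Genes of the pathway lists were named as those past the threshold (up to 8 each way) or, with none, the 3 with the smallest p, and for fractions the 4 largest past the threshold; a few others are named for their role, chosen after their values were seen. One gene that this rule names is not reported here. No mean-signal column was used here, so the normexp alternative took the median signal and local background. Each mouse gave 1 array per fraction, and its number therefore pairs the fractions. Deviations from group means of the 2 fractions correlated at 0.256, 0.283 and 0.203 in knockout mice 120, 86 and 72, and at -0.161, -0.115 and 0.462 in control mice 99, 73 and 74. The alternatives were background correction, scaling, filters, the probe rule, slide and mouse as blocks, the arrays fitted, and leaving out mice.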

Additional observations from a re-analysis of the deposited data

Results flagged for a closer look

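For 3 of the CCN genes and YAP targets the knockout was the higher in germ cells on each of the 3 slides and the lower in the Sertoli fraction on each. The genotype difference in the Sertoli fraction minus that in germ cells was -2.17 for Ankrd1, -2.09 for Ccn5 and -0.90 for Ccn2, and is given as a description, with the difference not tested here, because these genes were chosen with their values known. Ccn5 differed by as little as -0.003 on slide 1 in the Sertoli fraction. Germ-cell Ankrd1 was not above background in any control or in knockout mouse 120, so on slide 1 its germ-cell direction lies between background signals. The size of the Ankrd1 value (-2.17) therefore rests in part on background signals and is not a measured size. The same opposite directions were found in 480 of 24880 genes (1.93%), and the reverse in 184 (0.74%).

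The pattern was also seen in 9 named genes of the pathway lists, none of which passed the limma test of the difference itself (adjusted p 0.687 to 0.999). Only named genes of these lists were searched, and their naming used these same data, so nothing is read from the number. Among contractile and adhesion genes the difference was -1.43 for Fhl2, -1.20 for Acta2, -0.99 for Zyx, -0.96 for Cnn1 and -0.83 for Tagln. It was -1.15 for the CCN co-receptor Sdc4, -0.90 for the YAP target Ccdc80, -0.75 for the TGF-beta antagonist Smad7 and -0.64 for the angiomotin Amot.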

How the results depend on the processing

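In germ cells 55 genes passed the threshold between genotypes. The count was 3 with normexp, 28 with no filter on dim probes, 1 with only the arrays compared, 1 with only the mice of 8 months and 1 without both mice titled het, and 3 to 130 over the fits without 1 mouse. In the Sertoli fraction it was 0 (756 at an unadjusted limma p under 0.05), 1 with the authors' deposited table, 5 without the het mice, and 0 to 5 without 1 mouse (5 without mouse 99). For the difference between fractions the 2 genes became 0 with normexp, the 8-month mice or without the het mice, 1 with quantile normalization or the authors' table, 4 with only probes well above background on all arrays, and 0 to 3 without 1 mouse. With the mouse as a random replicate block (consensus correlation 0.126) the counts were 55, 0 and 2, as without it, and no call named here changed; the cause of the other shifts was not tested. Between fractions, the share of calls that were higher in the Sertoli fraction of control mice was 52.1%, 65.7% with normexp and 65.1% with only probes well above background on all arrays, and 50.6% and 63.9% (the latter filter) in knockout mice. The median of all genes moved with scaling from 0.21 to 0.44 in control mice and from 0.09 to 0.41 in knockout mice after quantile normalization. With normexp it moved from 0.21 to 0.85 in control mice, from -0.10 to -0.41 between genotypes in the Sertoli fraction, and from -0.09 to -0.55 for the difference between fractions. Of 854 member values under alternatives, 734 moved by less than 1 SD and 120 by more, with the signs that turned given beside the genes. Of 96 differences of named pathway and marker genes, 10 changed sign under some setting, none of which had passed: without mouse 74, Lats1 (range without 1 mouse -1.05 to 0.123) and Itgam (-0.572 to 0.082) in the Sertoli fraction and Tead4 (-0.733 to 0.042) in germ cells, and, without the het mice, Tead4 (0.145 in germ cells, 0.021 in the Sertoli fraction), Frmd6 (0.103) and Edn1 (-0.083) in the Sertoli fraction, and, under 1 or more settings, Wwc2, Vgll3 and Tead2 in the Sertoli fraction and Tead2 in germ cells. Low signal limits Ccn3, Ccn6 and Ankrd1 in germ cells.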
